A study of Mus musculus with 16 samples.

Results

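Liver RNA of 8 Fgl1 WT and 8 Fgl1 LKO mice was sequenced to ask what loss of FGL1, a protein secreted by hepatocytes, does to the liver transcriptome, and the 4 serum amyloid A genes Saa1, Saa2, Saa3 and Saa4 and the 3 orosomucoid genes Orm1, Orm2 and Orm3 are described here. They were taken by their symbols from the 17003 genes of the deposited table, and all 7 were found. They were selected on their FPKM in these same mice, among which Saa1 varied widely, so that their levels and their spread between mice are a description without a test. All mice were males of 8 weeks, fed and kept on normal chow, with 1 library per mouse of polyadenylated RNA from whole liver. Both genotypes carried the same floxed Fgl1 alleles (Fgl1 fl/fl), made from a EUCOMM allele by removing its cassette with FLPO recombinase. Fgl1 LKO mice also carried a transgene with the CRE recombinase under the albumin promoter, which acts in hepatocytes, and Fgl1 WT mice were their littermates without CRE. Whether other cells of the liver keep the floxed gene intact was not measured here, and a CRE control without floxed alleles is not part of these samples. The methods of the study name a smaller number of sequenced mice than the labels, and all labelled mice were used.

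Serum amyloid A and orosomucoid are plasma proteins of the acute-phase response, in which the liver changes what it secretes after infection or injury. Interleukin-6 acts through its receptor, JAK kinases and STAT3, interleukin-1 and TNF act through NF-kappaB, and together with C/EBP factors and glucocorticoids they raise transcription of these genes in hepatocytes. Saa1 and Saa2 encode the acute serum amyloid A proteins that circulate on high-density lipoprotein, Saa3 encodes a form made in many tissues and by macrophages, and Saa4 encodes the constitutive form. Orm1, Orm2 and Orm3 encode orosomucoid (alpha-1-acid glycoprotein), a heavily glycosylated lipocalin that binds drugs and other small molecules.

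The genes form 2 clusters in the mouse genome (GRCm39, GENCODE vM39 annotation). The serum amyloid A genes lie within 42.3 kb at chr7:46361422-46403737, in the order Saa3, Saa4, Saa1 and Saa2, with Saa2 on the plus strand and the others on the minus strand. The orosomucoid genes lie within 23.1 kb at chr4:63261052-63284115, in the order Orm1, Orm3 and Orm2, all on the plus strand. Each serum amyloid A gene has 4 exons in its principal transcript and each orosomucoid gene 6. Principal transcripts of Saa1 and Saa2 were identical at 94.8% of aligned bases, with a longest identical stretch of 76 bases. Those of Orm1 and Orm2 were identical at 91.0%, with a longest stretch of 141 bases, and Orm3 was 85.9% identical to Orm1 and 88.5% to Orm2. Reads had 150 bases and no stretch of that length was shared, but how reads with several matches were counted is not given in the sources used here, so that the split between these near copies is uncertain.

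Sequences before the RefSeq start of these genes are shown as a description, and their part in the levels was not tested. RefSeq promoters, 250 bases before each start (from a table of build GRCm38.p6), were given for 6 of the 7 genes and each was placed on GRCm39 by its only exact match. Orm1 was not among them. All 6 held a match to the C/EBP motif TTGCNNAA on 1 strand or the other, against 9.54% of the promoters of 27012 other genes. Near copies are among the 6 (compared below) and some windows lie partly or wholly in exons, so that this count is no test. For Saa1, Saa2, Saa4 and Orm2, the bases before any annotated exon are printed 5′ to 3′ on the strand of the gene, and for Saa3 and Orm3, whose matches lie inside exons of the GENCODE annotation, only 30 bases around the match, with capitals marking the C/EBP matches:
Saa1, chr7:46392548-46392654, minus strand: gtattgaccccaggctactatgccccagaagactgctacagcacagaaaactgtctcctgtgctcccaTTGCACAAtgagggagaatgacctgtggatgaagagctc
Saa2, chr7:46401007-46401213, plus strand: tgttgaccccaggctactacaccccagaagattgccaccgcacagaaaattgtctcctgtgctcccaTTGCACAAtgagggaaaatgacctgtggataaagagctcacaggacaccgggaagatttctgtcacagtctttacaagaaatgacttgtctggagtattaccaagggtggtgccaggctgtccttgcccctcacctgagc
Saa4, chr7:46382036-46382277, minus strand: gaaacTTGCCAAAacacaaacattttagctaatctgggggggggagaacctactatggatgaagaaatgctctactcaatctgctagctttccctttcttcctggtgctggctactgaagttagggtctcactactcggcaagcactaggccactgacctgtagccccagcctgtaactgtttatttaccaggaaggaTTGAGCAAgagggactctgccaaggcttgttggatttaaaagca
Saa3, chr7:46365181-46365210, minus strand: ggtaagtgggaTTATGCAAgatcaaacagg
Orm2, chr4:63280436-63280685, plus strand: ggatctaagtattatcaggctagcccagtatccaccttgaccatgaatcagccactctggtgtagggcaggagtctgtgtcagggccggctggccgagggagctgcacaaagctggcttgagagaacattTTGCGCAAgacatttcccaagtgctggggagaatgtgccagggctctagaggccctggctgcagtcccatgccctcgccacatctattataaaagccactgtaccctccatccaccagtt
Orm3, chr4:63274263-63274292, plus strand: gagggaacattTTGCACAAgacatttatca

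Over the 250 bases, Saa1 and Saa2 were identical at 95.6% of aligned bases, with the same C/EBP letters beginning at -182 and -183 from the start, and Orm2 and Orm3 at 89.0%. Saa4 held 2 C/EBP matches and the other genes 1 each. The STAT motif TTCNNNGAA had a match in 0 of the 6 (7.18% of other promoters), and the NF-kappaB motif in 0 of the 6 (7.01%). With shares this low among other promoters, 0 of 6 does not set these genes apart. TATAAA was found in Orm2 and Orm3 (13% of other promoters), and TGTTCT, a glucocorticoid receptor half-site, in Orm2, on the minus strand and not overlapping the C/EBP letters (16.2%). These are matches of letters in a short window, counted on both strands. Positions count from the RefSeq start, which lies 143 bases inside the GENCODE transcript of Saa1 and 476 bases inside that of Saa3. For Saa2, Orm3 and Saa4, it lies 43, 31 and 8 bases inside. All 250 bases of the Saa3 window and 143 of those of Saa1 lie in exons of these transcripts, as do 43 for Saa2, 31 for Orm3 and 8 for Saa4.

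The targeted gene was measured first, as a check of the labels. Fgl1 (NCBI Gene 234199) lay between 157.8 and 1331 FPKM in Fgl1 WT mice and between 13.2 and 90.0 FPKM in Fgl1 LKO mice, without overlap (two-sided exact permutation p = 0.000155, the lowest value possible with 8 mice in each group). According to the study, CRE removes a single exon of Fgl1, and the FPKM count the gene as a whole. Fragments of the remaining exons may thus be counted in Fgl1 LKO mice, so that these levels are no measure of intact Fgl1. FPKM are fragments normalised for transcript length and library size, so that levels of different genes can be set side by side per length. Read numbers are not given in the sources used here, and the relative depth of the libraries, estimated from low values of 51 genes, lay between 0.947 and 1.03. The summed FPKM of a mouse ran from 673153 to 786188. Mouse numbers in the labels were grouped here into 4 runs (36 to 38, 48 to 55, 60 to 64 and 69 to 72). Mouse 55 (LKO 3) lies as far from mouse 50 as from mouse 60, so that its place in the run 48 to 55 was a choice. The run 36 to 38 holds 3 Fgl1 WT mice and no Fgl1 LKO mouse. What the runs stand for is not given in the labels.

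Saa1 (NCBI Gene 20208) reached the highest level of the 7 genes. In Fgl1 WT mice, it ran from 63.8 FPKM in WT 1 through a median of 531.2 to 16268 FPKM in WT 7. In Fgl1 LKO mice, it ran from 68.4 FPKM in LKO 3 through a median of 2359 to 7669 FPKM in LKO 5. The genotypes overlapped over most of this range, with WT 7 and WT 5 (13092 FPKM) above every Fgl1 LKO mouse and the 3 mice of the run 36 to 38 at 63.8 to 71.4 FPKM. Saa2 (NCBI Gene 20209) ran from 16.8 through a median of 282.7 to 16031 FPKM in Fgl1 WT mice and from 34.9 through 930.1 to 6171 FPKM in Fgl1 LKO mice. Its 4 highest mice were those of Saa1, WT 7, WT 5, LKO 5 and LKO 2.

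Saa3 (NCBI Gene 20210) stayed far below these levels. It ran from 3.10 through a median of 9.88 to 575.6 FPKM in Fgl1 WT mice and from 4.46 through 16.2 to 114.5 FPKM in Fgl1 LKO mice. Its highest mouse was WT 5, and WT 7 followed at 119.0 FPKM. Saa4 (NCBI Gene 20211), the constitutive form, ran from 106.1 through a median of 154.6 to 709.2 FPKM in Fgl1 WT mice and from 89.9 through 230.3 to 412.2 FPKM in Fgl1 LKO mice. WT 5 had its highest level as well, whereas WT 7, the highest mouse for Saa1 and Saa2, had 174.7 FPKM and took rank 8 of 16.

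Orm1 (NCBI Gene 18405) was the main orosomucoid transcript of every mouse. It ran from 626.7 through a median of 1282 to 5661 FPKM in Fgl1 WT mice and from 747.2 through 1447 to 3526 FPKM in Fgl1 LKO mice. Orm2 (NCBI Gene 18406) ran from 6.33 through a median of 21.8 to 1963 FPKM in Fgl1 WT mice and from 5.75 through 41.7 to 310.9 FPKM in Fgl1 LKO mice. Both were highest in WT 7, then WT 5, then LKO 5, and lowest in the 3 mice of the run 36 to 38 and LKO 3. Orm3 (NCBI Gene 18407) ran from 0.93 through a median of 1.23 to 41.6 FPKM in Fgl1 WT mice and from 0.34 through 1.77 to 7.43 FPKM in Fgl1 LKO mice. WT 7 stood alone for Orm3, with LKO 5 at 7.43 and WT 5 at 5.40 FPKM next to it.

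**Figure D1:**
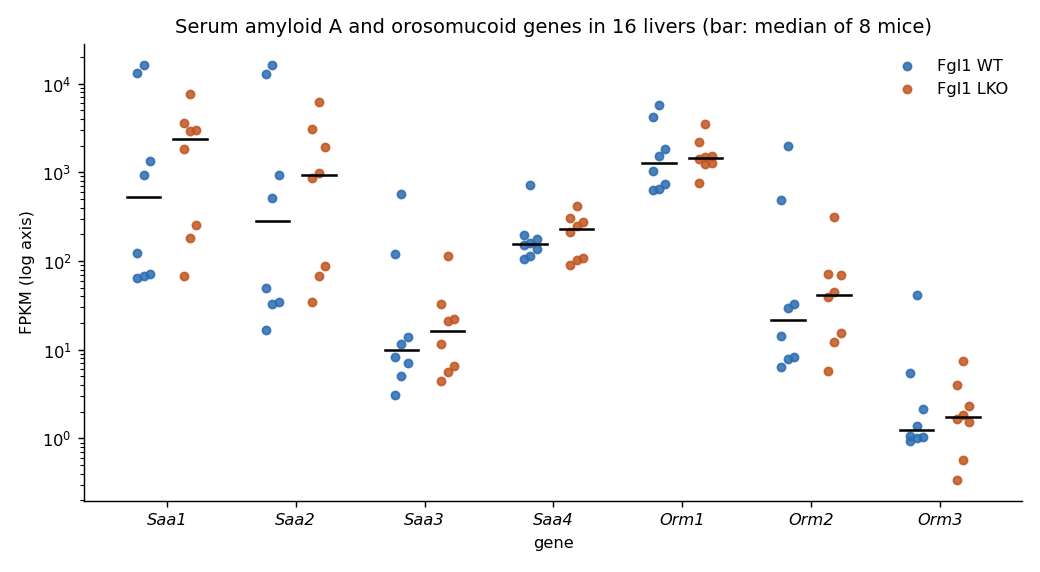
FPKM on a log axis of the 7 genes (horizontal axis), with 1 point per mouse, Fgl1 WT in blue and Fgl1 LKO in orange, and a bar at the median of 8 mice. Points of both genotypes overlap for every gene, the medians of Fgl1 LKO are higher, and the highest point of each gene is an Fgl1 WT mouse.

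Measured by the ratio of the highest to the lowest of the 16 mice, Saa2 spread most, over 955.9-fold. Orm2 spread over 341.5-fold, Saa1 over 255.1-fold, Saa3 over 185.7-fold and Orm3 over 122.4-fold. Orm1 and Saa4 spread far less, over 9.03-fold and 7.89-fold. On the log2(FPKM + 1) scale, the standard deviation within genotypes was 3.41 for Saa2, 2.94 for Saa1, 2.43 for Orm2 and 2.02 for Saa3, against a median of 0.17 over the 12770 genes kept. Among these genes, Saa2 took rank 1 for this spread, Saa1 rank 2, Orm2 rank 4 and Saa3 rank 8. Orm3, with 1.25, took rank 24, Orm1, with 0.98, rank 57 and Saa4, with 0.84, rank 95.

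**Figure D2:**
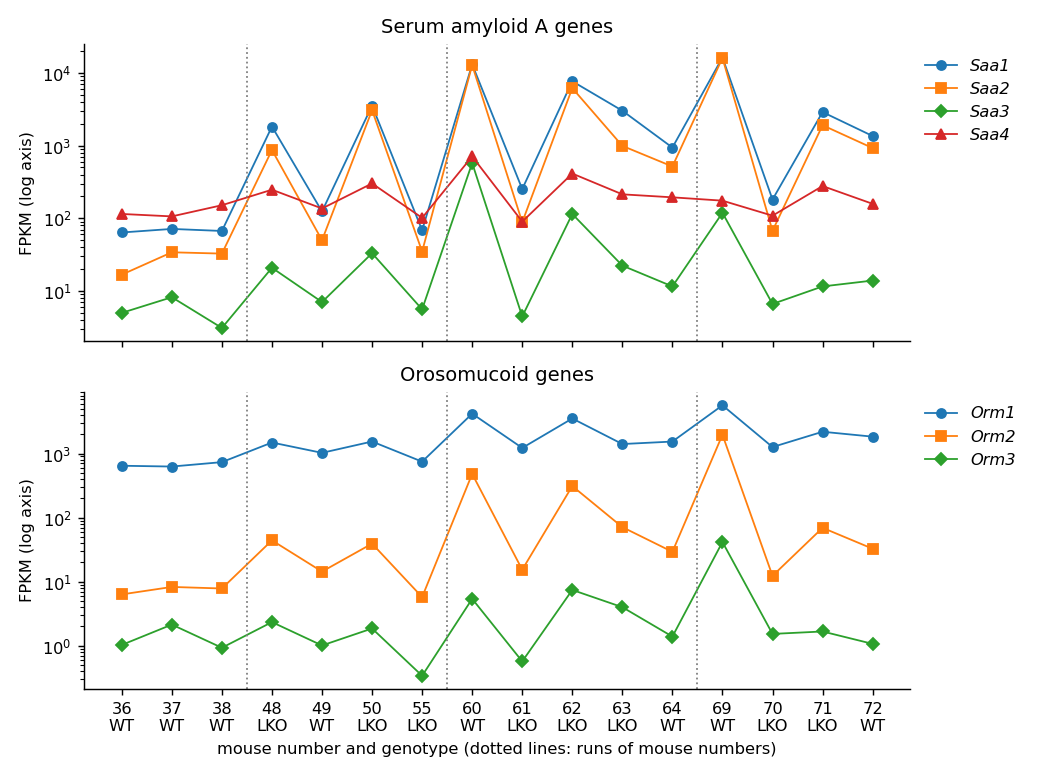
FPKM on a log axis of the serum amyloid A genes (upper panel) and the orosomucoid genes (lower panel) in each of the 16 mice, ordered by mouse number, with the genotype under the number and dotted lines between runs of numbers. The 3 mice of the run 36 to 38 are low for Saa1, at 63.8 to 71.4 FPKM, and mice 60, 62 and 69 carry the peaks, while Saa4 does not peak in mouse 69.

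The order of levels within a mouse was fixed for some pairs and changed for others. Saa1 was above Saa2, Orm1 above Orm2 and Orm2 above Orm3 in 16 of 16 mice. Saa1 was above Orm1 in 7 mice and below it in 9, and the level of Saa1 ran from 9.11% of that of Orm1 in WT 3 to 313% in WT 5. Saa4 was above Saa1 in 5 mice, the 3 of the run 36 to 38, WT 4 and LKO 3. Among all genes of a mouse ordered by FPKM, Saa1 moved between rank 4 and rank 1083 and Saa2 between rank 5 and rank 2962. Orm1 stayed between rank 21 and rank 133, and Saa4 between rank 118 and rank 852.

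Proportions within the families also differed between mice. The level of Saa2 was 26.3% of that of Saa1 in WT 1 and had a median of 49.9% over the 16 mice. It reached 97.7% in WT 5 and 98.5% in WT 7, the mice with the most Saa1. The other mice did not all keep this order. LKO 6, with 3016 FPKM of Saa1, had 32.8%, while LKO 2, with 3545 FPKM, had 86.6%. LKO 4, with 252.3 FPKM, had 35.0%, below the 51.0% of LKO 3, with 68.4 FPKM. The level of Saa4 lay between 226% of that of Saa1 in WT 3 and 1.07% in WT 7, and that of Saa3 lay between 0.40% and 11.5%. Orm2 stood at 0.77% of the level of Orm1 in LKO 3 and at 34.7% in WT 7, with a median of 1.84%. Since a percentage of Saa1 or Orm1 has that gene as its denominator, its relation to that gene is not independent of it. How reads were split between near copies, such as Saa1 and Saa2 or Orm1 and Orm2, is not known, so that these percentages are uncertain. The 7 genes together made up 0.12% of the summed FPKM of a mouse at the lowest, 5.62% in WT 7, 4.23% in WT 5 and 2.48% in LKO 5.

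**Figure D3:**
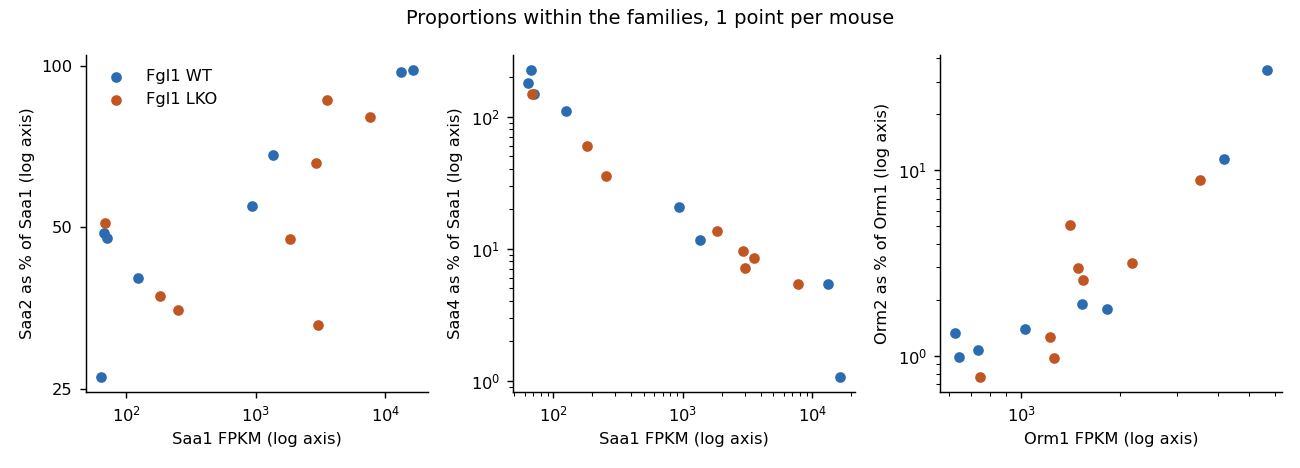
Level of Saa2 and of Saa4 as a percentage of Saa1, against the FPKM of Saa1, and level of Orm2 as a percentage of Orm1, against the FPKM of Orm1, with 1 point per mouse, all axes being log axes. Saa2 approaches 100% of Saa1 in the 2 mice with the most Saa1, the percentage of Saa4 lies between 226% and 1.07%, lower in mice with more Saa1, and Orm2 reaches 34.7% of Orm1 in the mouse with the most Orm1.

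The 2 mice with the most Saa1 differed in which other genes were high. WT 5 had 575.6 FPKM of Saa3 and 709.2 FPKM of Saa4, and WT 7 had 119.0 and 174.7 FPKM. WT 7 had 1963 FPKM of Orm2 and 41.6 FPKM of Orm3, and WT 5 had 480.8 and 5.40 FPKM. Each is 1 library, so that this contrast has no replicate.

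Fgl1 WT and Fgl1 LKO mice overlapped in the level of each of the 7 genes. On the log2(FPKM + 1) scale, compared with limma over all genes kept with Benjamini-Hochberg adjustment, 0 of the 7 passed the threshold of 0.05 (0% of the 12770 genes passed it). Fgl1 itself, with a log2 fold change of -3.105, did not pass in this fit (adjusted p = 0.0725 from limma). A count of 0 therefore does not show that the genotypes were alike. At an unadjusted p under 0.05, 0 of the 7 were called, against 7.01% of all genes, and 0 of the 7 had groups without overlap, against 0.0157%. For Saa1, the mean was 3997 ± 6665 FPKM (SD, n = 8) in Fgl1 WT mice, against 2431 ± 2535 FPKM with Fgl1 deleted (SD, n = 8). The log2 fold change of Fgl1 LKO against Fgl1 WT was 0.88 (standard error 1.31, 95% interval -1.88 to 3.63, adjusted p = 0.886 from limma). An exact permutation test over the 12870 splits of the mice gave p = 0.55, two-sided.

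For Saa2, the log2 fold change was 0.75 (standard error 1.52), with an interval from -2.44 to 3.94. Saa3 had -0.22 (interval -2.11 to 1.67) and Orm2 -0.13 (interval -2.41 to 2.14). These intervals are so wide that differences of several-fold in either direction lay within them. They were narrower for Saa4, with a log2 fold change of 0.11 (interval -0.68 to 0.91), and for Orm1, with 0.06 (interval -0.86 to 0.98). Orm3 had -0.32 (interval -1.49 to 0.85), on a scale that understates differences of genes with low FPKM. Exact permutation p-values of the 7 genes ran from 0.55 to 0.92, and limma adjusted p-values from 0.886 to 0.981.

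The direction of the difference depended on the summary taken. Mean FPKM was higher in Fgl1 WT mice for 6 of the 7 genes, by 4.48-fold for Orm2, 3.39-fold for Saa3, 2.76-fold for Orm3, 2.30-fold for Saa2, 1.64-fold for Saa1 and 1.22-fold for Orm1, and the ratio for Saa4 was 0.996. Median FPKM, in contrast, was higher in Fgl1 LKO mice for all 7, as with 2359 against 531.2 for Saa1 and 41.7 against 21.8 for Orm2. Of the 8 Fgl1 LKO mice, 5 lay above the Fgl1 WT median for each gene except Orm3, for which 6 did.

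The genotypes were not spread evenly over the runs of mouse numbers, and the direction changed with them. With the run as a term in limma, the log2 fold change was -0.64 for Saa1, -1.02 for Saa2, -0.21 for Saa4 and -0.46 for Orm1, each above 0 without that term. Saa3, Orm2 and Orm3 stayed below 0, at -1.17, -1.20 and -0.55, and 0 of the 7 passed. Within the run 48 to 55, with 1 Fgl1 WT and 3 Fgl1 LKO mice, Saa1 was higher in Fgl1 LKO by 2.62 on the log2 scale. The difference was -0.96 within the run 60 to 64 (2 Fgl1 WT and 3 Fgl1 LKO mice) and -2.70 within the run 69 to 72 (2 and 2 mice). Orm2 had differences of 0.59, -0.75 and -3.07 within the same runs. With so few mice in each, these are values without a test. LKO 3 (mouse 55), with 68.4 FPKM of Saa1, was counted in the run 48 to 55, and no other placement was fitted.

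**Figure D4:**
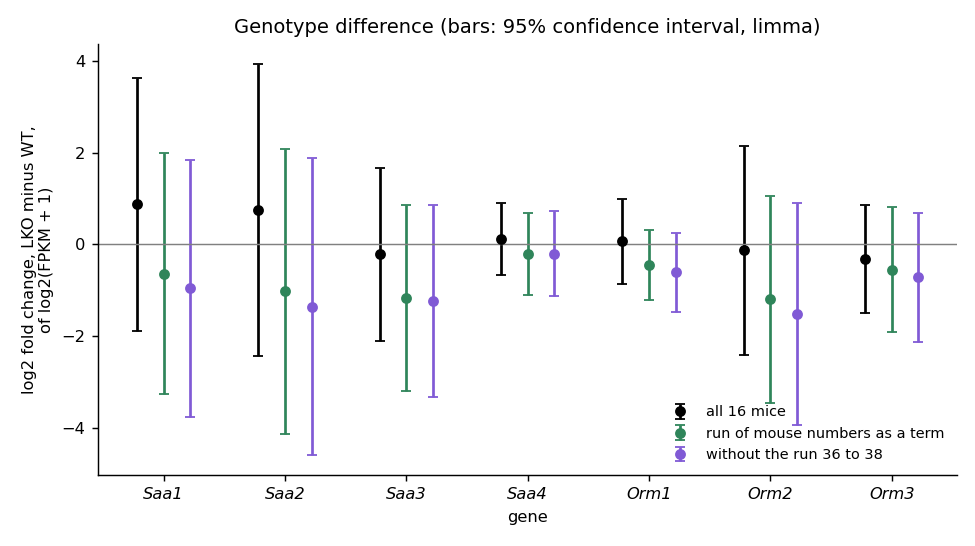
Log2 fold change of Fgl1 LKO against Fgl1 WT on the log2(FPKM + 1) scale for the 7 genes, with the 95% confidence interval from limma, for all 16 mice (black), with a term for the run of mouse numbers (green) and without the 3 mice of the run 36 to 38 (purple). Every interval includes 0, and Saa1, Saa2, Saa4 and Orm1 change from above to below 0 between black and the other colours.

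From mouse to mouse, levels of the genes varied together in both genotypes. With the mean of each genotype subtracted, the Pearson correlation of log2(FPKM + 1) with Saa1 over the 16 mice was 0.994 for Saa2 (Spearman 0.985), 0.942 for Orm2 (0.974), 0.937 for Orm1 (0.909) and 0.887 for Saa3 (0.921). Saa4 had 0.807 (0.794) and Orm3 0.772 (0.859). For Saa4, the correlation with Saa1 was 0.719 in Fgl1 WT and 0.95 in Fgl1 LKO mice, and 0.901 over both without LKO 3 and WT 7, the 2 mice farthest from the median of Saa1. For Orm3 it was 0.718 without them. By Pearson correlation, the least alike pair was Saa4 and Orm3, with 0.462 (0.305 in Fgl1 WT and 0.803 in Fgl1 LKO mice). By Spearman correlation it had 0.744, and Orm1 and Orm3, with 0.738, were lower. All values of a mouse come from 1 library, and the genes were chosen for their spread over these mice, so that the correlations are given without p-values. The unknown split of reads between near copies also limits the correlations of Saa1 with Saa2 and among the orosomucoid genes.

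Outside the 7 genes, the highest correlations with Saa1 among 10030 genes whose mean FPKM was 1 or more were those of Clu (the chaperone clusterin, 0.948), Fgl1 itself (0.948), Lcn2 (lipocalin 2, 0.946) and Lrg1 (a leucine-rich acute-phase glycoprotein, 0.937). Hp (haptoglobin, 0.932), Hpx (hemopexin, 0.930) and the membrane proteins Tmem176a (0.930) and Tmem176b (0.926) followed. For Fgl1, the correlation with Saa1 was 0.989 within Fgl1 WT and 0.899 within Fgl1 LKO mice. In Fgl1 LKO mice, these values may come from the exons that CRE leaves, which was not tested. Of the 10030 genes, 35 were above 0.8 and 58 below -0.8, the lowest being Fam171a1 (-0.929), Dyrk2 (a protein kinase, -0.889), Bicral (-0.884) and Sparcl1 (a matrix protein, -0.880). Orm2 was followed most closely by Prtn3 (proteinase 3, 0.954), Hpx (0.952), Slc3a1 (an amino acid transporter subunit, 0.946), Tmem176b (0.943) and Hp (0.942).

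Most other positive acute-phase proteins varied in the direction of Saa1. Of 20 genes, 17 had a correlation above 0.5 and 0 below -0.5, with a median of 0.743, against 3.13% above 0.5, 16.3% below -0.5 and a median of -0.184 over the 12763 other genes kept. Fgb (fibrinogen beta chain) had 0.731, whereas Hamp (hepcidin, 0.0921), Crp (C-reactive protein, 0.385) and Cd14 (0.273) were the 3 below 0.5. Of 6 negative acute-phase proteins, 4 were below -0.5, among them Ttr (transthyretin, -0.847) and Alb (albumin, -0.788), and Ahsg (fetuin-A) had -0.0072. Of 7 partners and receptors of serum amyloid A, 1 was above 0.5 (Tlr2, 0.696) and 2 were below -0.5, Apoa2 (apolipoprotein A-II of high-density lipoprotein, -0.748) and the scavenger receptor Cd36 (-0.618). Apoa1 had -0.371 and the lipoprotein receptor Scarb1 0.286.

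Transcripts of inducing cytokines were scarce in these livers. Il6 lay between 0 and 0.14 FPKM, above 0 in 7 of 16 mice, and was not among the genes kept. Il1b lay between 0.69 and 5.72 FPKM, with a correlation with Saa1 of 0.122. Of 10 cytokine and receptor genes kept, 0 were above 0.5 and 2 below -0.5, near the 3.13% and 16.3% of the other genes kept. Il6ra, the interleukin-6 receptor, had -0.305, Lifr 0.237, Tnfrsf1a 0.436 and Il1rap -0.743. Of 13 signalling and transcription factor genes, 2 were above 0.5 and 3 below -0.5, against the same 3.13% and 16.3%. Socs3, the feedback inhibitor of STAT3 and itself its target, had 0.701 and Stat3 0.536. Cebpb had 0.141, Cebpd 0.0777, Hnf4a 0.133, Jak2 -0.637, Cebpa -0.647 and Nr3c1, the glucocorticoid receptor, -0.744.

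Between genotypes, 0 genes of these 5 lists passed the threshold in limma with adjustment over all genes, and 4 of the 56 kept had an unadjusted p under 0.05, a share of 7.14% that is near the 7.01% of all genes. Il6st (gp130, the signalling subunit shared by interleukin-6 family receptors) had 22.5 ± 4.19 FPKM (SD, n = 8) in Fgl1 WT and, in Fgl1 LKO mice, 33.0 ± 10.5 FPKM (adjusted p = 0.696 from limma). Jak1, with 21.0 ± 1.70 and 24.4 ± 3.82 FPKM, and Nfkb1, with 7.28 ± 1.06 and 8.92 ± 2.19 FPKM, had the same adjusted p of 0.696 in limma. Serpina6 (corticosteroid-binding globulin) had 106.0 ± 25.1 FPKM in Fgl1 WT and 73.7 ± 12.6 FPKM in Fgl1 LKO mice (log2 fold change -0.50, adjusted p = 0.66 from limma), with 0 of 8 Fgl1 LKO mice above the Fgl1 WT median.

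**Figure D5:**
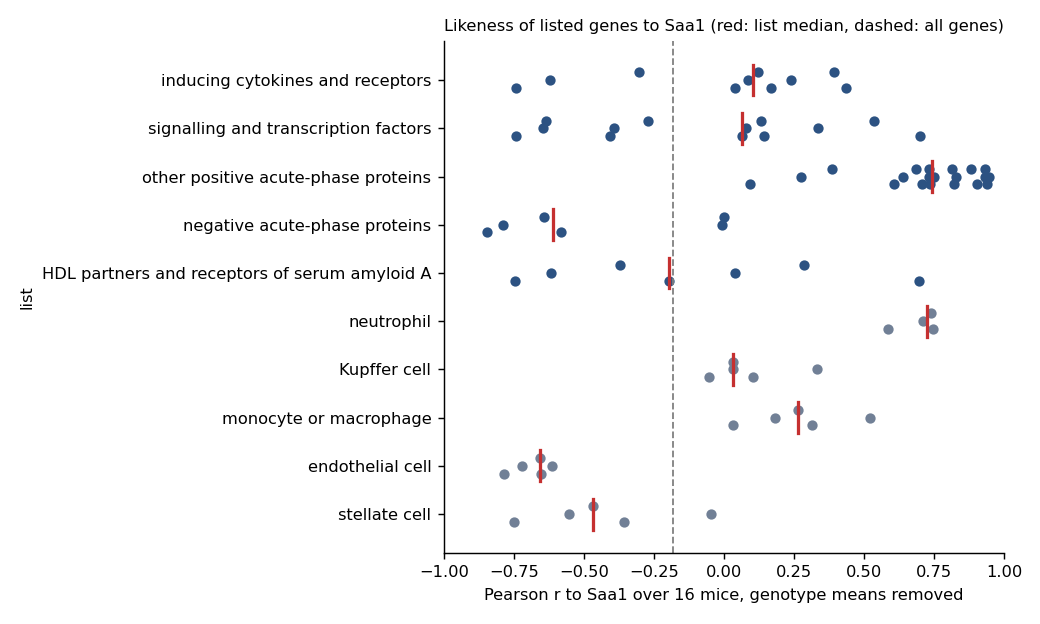
Pearson correlation with Saa1 over 16 mice, genotype means subtracted, of the genes of 5 pathway lists (blue) and 5 cell type marker lists (grey), with 1 point per gene, a red line at the median of each list and a dashed line at the median of all other genes kept (-0.184). Other positive acute-phase proteins lie to the right, with a median of 0.743, and negative acute-phase proteins and endothelial markers lie to the left.

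Cell type markers were measured in the same mice, since fewer cells of a type and less RNA per cell cannot be told apart in bulk tissue. The summed FPKM of neutrophil markers ran from 1.00 to 35.1 in Fgl1 WT and from 3.37 to 28.1 in Fgl1 LKO mice, was 35.1 in WT 5 and 24.5 in WT 7, and had a correlation with Saa1 of 0.737. S100a8 and S100a9 made up most of this sum, with means of 6.15 and 4.82 FPKM in Fgl1 WT mice, against 0.775 FPKM for Csf3r. All 4 neutrophil markers kept of 6 were above 0.5 (3.13% of the other genes kept), among them Csf3r (0.586) and Retnlg (0.738). Both were low, with Csf3r at 1.51 FPKM at most and Retnlg at 1.69 FPKM at most and above 0 in 12 of 16 mice. Of the markers not kept, Mpo had 0.139 and reached 0.13 FPKM at most. Ly6g, with 0.514, was above 0 in 2 of 16 mice. All 5 endothelial markers were below -0.5 (16.3% of the other genes kept). Their summed levels were 32.8 to 73.5 FPKM in Fgl1 WT and 22.8 to 86.0 FPKM in Fgl1 LKO mice. Hepatocyte markers, led by Alb, summed to 51480 to 87000 FPKM in Fgl1 WT and 47040 to 69170 FPKM in Fgl1 LKO mice, with a correlation of -0.802. Alb made up most of this sum. Alb and Ttr are also among the negative acute-phase proteins above, and Apoa1 among the partners of serum amyloid A. The sum is therefore no separate measure of hepatocytes. Of the other hepatocyte markers, Cyp2e1 had -0.29 and Cps1 -0.832. Kupffer cell (0.20), monocyte or macrophage (0.178) and lymphocyte markers (0.16) had weaker correlations of their sums, and stellate cell markers -0.565. Adipocyte sums reached 0.88 FPKM at most with Plin1 at 0 in all mice, and acinar sums 2.41 FPKM with Pnlip and Cpa1 at 0. Between genotypes, 0 markers of the 9 lists passed in limma, and at an unadjusted p under 0.05, 2 of 5 Kupffer cell markers were higher and 1 acinar marker was lower in Fgl1 LKO mice, 3 of 34 markers kept (8.82%), near the 7.01% of all genes. The part of these cell types in the levels of the 7 genes was not tested.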

How the data were processed

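The authors used a strand-specific library, filtered the reads of 150 bases, ran HISAT on mm39 and Bowtie2 on the reference genes, and deposited 1 table of FPKM values. Versions, annotation release and counting are not given in the sources used here. FPKM already carry the scaling for length and library size by the authors, so that no test for counts was used. In R 4.3.3, limma 3.58.1 (lmFit, eBayes with trend) was run on log2(FPKM + 1) of 12770 genes whose mean FPKM was 0.1 or more. Tests were two-sided, and p-values adjusted by Benjamini-Hochberg were called under 0.05. Exact permutation tests used Python 3.11.15 and scipy 1.17.1. Both were tested on simulated data. No table gives read counts, so no counting error is given. Correlations used values centred on genotype means. Replicate numbers were not taken to pair the mice.

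The 7 genes and the lists were chosen with earlier results of these data known. Named genes outside the 7 were the targeted gene, those of each pathway list with an unadjusted p under 0.05 or the 3 highest means, Il6, Il1b, Il6ra, Il6st, Stat3, Socs3 and Cebpd, and the genes most and least like Saa1 or Orm2. Exceptions named after their values were seen were Lcn2, Lrg1, Crp, Hamp, Cd14, Tlr2, Cd36, Jak2 and Nr3c1. Alternatives were another pseudocount (0.1), other filters, other scalings, array weights, a term for the run of mouse numbers, a replicate block, and leaving out mice.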

Additional observations from a re-analysis of the deposited data

Results flagged for a closer look

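In 44 genes (the 7 genes, Fgl1 and other named genes) and both genotypes, the gap of the highest or lowest mouse to its nearest neighbour was set against the range of its group of 8 mice, on the log2(FPKM + 1) scale. In 2 of 88 groups it was above the 95% critical value of Dixon, and chance gives about 4.4 such groups. Since the 7 genes were selected on their levels in these mice, the critical value only marks the mice that stood apart and is no test of them. Saa4 in WT 5 stood at 709.2 FPKM and the next Fgl1 WT mouse, WT 6, at 194.2 FPKM, a gap of 0.68 of the log2 range. Orm3 in WT 7 stood at 41.6 FPKM and the next Fgl1 WT mouse, WT 5, at 5.40 FPKM, a gap of 0.61 of the log2 range. On FPKM itself, the gaps were 0.85 for Saa4 and 0.89 for Orm3, and those between WT 5 and WT 7 were 0.80 for Saa3 and 0.76 for Orm2, which were not above the critical value on the log2 scale.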

How the results depend on the processing

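In none of 26 alternatives did any of the 7 genes pass the threshold of limma, and 0 genes of the pathway lists passed. The lowest adjusted p of the 7 over all alternatives was 0.668, for Saa4. Signs were not stable. With a term for the run of mouse numbers, the log2 fold change was -0.64 for Saa1, -1.02 for Saa2, -0.21 for Saa4 and -0.46 for Orm1, and without the run 36 to 38 it was -0.96, -1.36, -0.20 and -0.61. Array weights gave 0.20 for Saa3 and 0.23 for Orm2. Leaving out each mouse in turn gave 0.43 to 1.57 for Saa1, 0.16 to 1.56 for Saa2, -0.62 to 0.47 for Saa3, -0.043 to 0.40 for Saa4, -0.11 to 0.34 for Orm1, -0.57 to 0.66 for Orm2 and -0.53 to 0.19 for Orm3. Without WT 7, Orm2 had 0.66 and Orm3 0.19, and without WT 5, Saa3 had 0.47 and Orm2 0.37. Signs also changed for Orm1 without WT 1, WT 2, WT 3, WT 4, LKO 5 or LKO 8 (-0.11 to -0.011), for Saa4 without LKO 5, for Saa3 without WT 7 (0.15) or LKO 4 (0.013), and for Orm2 without LKO 3, LKO 4 or LKO 7 (0.039 to 0.22). The cause was not tested. Over all genes, the count past the threshold was 0, and it was 1, Fgl1, with an equal sum over other genes, with the term for runs, with the replicate block and in the fit that left out mice 36 to 38.

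With the replicate block, the count for all genes was 1 and for the 7 genes 0. Of 8 same-numbered pairs, 3 had a correlation of deviations above 0.1 (from -0.16 to 0.45), and 3 mice correlated best with their own number, so that the numbers were not taken as pairs. The correlation of the other 6 genes with Saa1 lay between 0.734 (Orm3) and 0.996 (Saa2) without centring, with the other pseudocount, with an equal sum over other genes and without each mouse in turn, the last chosen after seeing the data. It was lower for Orm3 without LKO 3 and WT 7 together (0.718) and for Saa4 in Fgl1 WT mice alone (0.719). Read depth is unknown, which limits what can be said of Orm3, at 0.34 FPKM in its lowest mouse, and of Il6.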
